A study of Mus musculus with 8 samples.

Results

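Homeobox genes outside the *Hox* clusters were examined among the regions bound by SMCHD1 in neural stem cells (NSCs). The set held 46 genes of 13 families: LIM, PAX, sine oculis, NKX, DLX, IRX, OTX, EMX, EN, GBX, MSX, MEIS and PITX. The genes were chosen by name, with earlier results of these data known. A gene was counted when its GRCm38 gene span (GENCODE M21) overlapped at least 1 base of a deposited region, and each region was a peak from an earlier SMCHD1 data set, widened by 5000 bp to both sides. Of the 46 genes, 20 (43.5%) had a region, and these genes overlapped 66 of the 2840 regions. The same overlap was found for 5.43% of 21938 protein-coding genes. This contrast is a description, since the list was not independent of these data.

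The study used ChIP-seq with an anti-GFP antibody on SMCHD1 fused to GFP at its own locus, in female primary NSCs of the C57BL/6J strain that were derived from E14.5 mouse cortex and kept for fewer than 10 passages. It compared 3 lines of genotype Smchd1GFP+/+, called wild-type here, with 3 lines of genotype Smchd1GFPMommeD43/MommeD43, called *MommeD43* here. *MommeD43* is a missense mutation in the extended ATPase domain of SMCHD1, so both genotypes carry the tag and differ in the mutation. The 2 whole cell extract libraries, 1 for each genotype, were not analysed here. Each value is a log2 library-size-normalised read count that the authors merged over the 3 lines of a genotype, which leaves a single value for each genotype in a region and no SD between lines. No test between genotypes was possible, and every difference below is described against its counting error and against the other regions. The methods state that the wild-type ChIP-seq data were published earlier, whereas the results describe ChIP-seq of both genotypes as part of the study. Whether the libraries of both genotypes were made together is thus not clear, and any difference of experiment could not be told apart from genotype. The data are binding values, so the NSC label could not be checked against marker genes.

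SMCHD1 is a noncanonical structural maintenance of chromosomes protein that contributes to silencing of the inactive X chromosome, of imprinted clusters and of *Hox* genes. Homeobox genes encode transcription factors that bind DNA through a homeodomain. Many of those outside the *Hox* clusters pattern the brain, the eye, the face and the limbs, and in neural progenitors many are active only in the territory of the nervous system that they specify.

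The families differed in how many of their members had a region. Both Engrailed genes of the midbrain and hindbrain (*En1* and *En2*) and both *Meis* cofactor genes (*Meis1* and *Meis2*) had 1, as did *Pitx1*, a gene of hindlimb and pituitary development. Among the sine oculis genes, regulators of eye and forebrain, *Six3* and *Six6* had a region and *Six2* did not. Among the Iroquois genes, *Irx1*, *Irx2* and *Irx5* had a region and *Irx3*, *Irx4* and *Irx6* did not. *Otx1* of the forebrain and *Msx1* of the face and dorsal neural tube had a region, and their relatives *Otx2* and *Msx2* did not.

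In several families fewer members had a region than had none. In the LIM family, which specifies many neuron classes, *Lhx5*, *Isl1* and *Lmx1a* had a region and *Lhx1*, *Lhx2*, *Lhx3*, *Lhx4*, *Lhx6*, *Lhx9*, *Isl2* and *Lmx1b* did not. *Nkx2-1* and *Nkx6-1*, genes of the ventral neural tube, had a region, whereas *Nkx2-2*, *Nkx2-5* and *Nkx6-2* did not. The distal-less genes *Dlx2* and *Dlx6*, known for interneuron and branchial arch development, had a region, and *Dlx1*, *Dlx3*, *Dlx4* and *Dlx5* did not. *Pax3*, a dorsal neural tube and neural crest gene, had a region, and *Pax6* and *Pax7* did not. *Emx1* and *Emx2* of the dorsal forebrain and *Gbx2* of the anterior hindbrain had none.

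The length of the genes did not separate those with a region from those without. The median gene span was 7496 bp for the 20 genes with a region and 7380.5 bp for the 26 without, compared with 17425 bp over all protein-coding genes. Among genes of up to 10 kb, 12 of 28 members had a region, compared with 3.31% of protein-coding genes of that size. The gene start itself lay in a region for 18 members, compared with 3.00% of protein-coding genes, and the peak without its flanks overlapped 17 members, compared with 4.20%.

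A pair of DLX genes lay just outside a region. *Dlx5* was 555 bp from the nearest region, which was counted for its neighbour *Dlx6*, and *Dlx1* was 4120 bp from a region of its neighbour *Dlx2*. The next nearest were *Six2*, 60777 bp away, and *Nkx2-2*, 82246 bp away, and 22 of the 26 genes without a region were more than 100 kb from any region. The regions just inside the rule shared 446 bp with *Nkx6-1* and 481 bp with *Irx2*. No region was shared by a pair of members, and none lay in a *Hox* cluster.

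Sequence is shown for the start sites and peaks on which the comparison of sequence content turns. The windows from RefSeq (GRCm38.p6) below end at the base before the RefSeq start site and run 5′ to 3′ on the strand of the gene, and CG dinucleotides are in capitals. The CG motif reads the same on both strands. *Msx1*, *Irx2* and *Isl1* have a window that lies wholly inside an SMCHD1 peak, and *Gbx2* and *Irx4* have no region. Except for *Msx1*, these genes were chosen after their values were seen. *Pax3*, *Irx5* and *Dlx3* are named only. Windows that overlap annotated untranslated or coding sequence by more than 30 bases, among them those of *Nkx6-1*, *Meis2* and *Dlx1*, are not printed.
Msx1 (chr5:37824586-37824835, minus strand): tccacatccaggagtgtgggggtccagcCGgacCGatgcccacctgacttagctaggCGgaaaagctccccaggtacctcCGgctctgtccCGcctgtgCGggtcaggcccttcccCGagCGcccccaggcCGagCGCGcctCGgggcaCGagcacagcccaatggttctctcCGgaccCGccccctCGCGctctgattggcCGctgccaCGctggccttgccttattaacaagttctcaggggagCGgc
Irx2 (chr13:72628570-72628819, plus strand): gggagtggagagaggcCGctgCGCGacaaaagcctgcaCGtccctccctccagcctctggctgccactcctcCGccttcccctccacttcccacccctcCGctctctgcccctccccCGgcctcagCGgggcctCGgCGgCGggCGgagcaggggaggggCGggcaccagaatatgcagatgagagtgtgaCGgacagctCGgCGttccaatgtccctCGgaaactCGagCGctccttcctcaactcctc
Isl1 (chr13:116309689-116309938, minus strand): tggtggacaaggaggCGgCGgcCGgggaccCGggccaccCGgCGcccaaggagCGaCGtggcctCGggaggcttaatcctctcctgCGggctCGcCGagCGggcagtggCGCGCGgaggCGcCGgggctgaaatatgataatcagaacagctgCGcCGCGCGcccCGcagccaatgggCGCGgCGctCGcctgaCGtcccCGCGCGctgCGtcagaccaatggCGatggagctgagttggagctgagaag
Gbx2 (chr1:89931177-89931426, minus strand): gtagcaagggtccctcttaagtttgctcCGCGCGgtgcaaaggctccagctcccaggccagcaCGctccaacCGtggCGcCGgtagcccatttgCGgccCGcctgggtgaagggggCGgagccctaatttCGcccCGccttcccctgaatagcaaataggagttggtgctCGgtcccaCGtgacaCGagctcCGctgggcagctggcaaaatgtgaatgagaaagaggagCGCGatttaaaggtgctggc
Irx4 (chr13:73260247-73260496, plus strand): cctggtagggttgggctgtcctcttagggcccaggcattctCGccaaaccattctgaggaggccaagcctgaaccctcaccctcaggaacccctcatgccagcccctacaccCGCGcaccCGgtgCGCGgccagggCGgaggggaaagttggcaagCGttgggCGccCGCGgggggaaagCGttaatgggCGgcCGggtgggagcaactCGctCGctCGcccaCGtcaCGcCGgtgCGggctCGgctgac

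The start sites with and without a region overlapped in CG content. The 250 bases of *Msx1* held 20 CG, a count reached by 23.7% of protein-coding start sites in the table. *Irx2* held 19 (reached by 26.1%) and *Isl1* held 33 (5.13%). The genes without a region lay in the same range, since *Gbx2* held 18 (29.0%) and *Irx4* held 22 (19.5%). Over the wider 300-base windows, which run 250 bases before to 50 bases after the start, the 12 members with a region that are in the table had a median of 21.5 CG. The 22 members without a region had a median of 22.5, and all 21263 protein-coding windows had a median of 13. The medians of members with and without a region thus lay close together, and both lay above that of all protein-coding genes.

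The peaks were less uniform. The peaks below are exactly 300 bp long, are given on the plus strand of GRCm38.p6 and were chosen after their values were seen. They show how CG content varied among short peaks near these genes, and are an upstream peak of *Six3*, which overlaps an exon of the noncoding gene *Six3os1*, and upstream peaks of *Nkx6-1* and *Irx2*.
Six3 (chr17:85611301-85611600): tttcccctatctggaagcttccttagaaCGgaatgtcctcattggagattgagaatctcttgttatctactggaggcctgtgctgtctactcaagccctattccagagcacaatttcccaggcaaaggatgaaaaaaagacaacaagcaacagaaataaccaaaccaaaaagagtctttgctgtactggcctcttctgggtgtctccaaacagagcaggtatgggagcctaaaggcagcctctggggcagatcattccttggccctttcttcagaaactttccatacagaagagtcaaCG
Nkx6-1 (chr5:101669551-101669850): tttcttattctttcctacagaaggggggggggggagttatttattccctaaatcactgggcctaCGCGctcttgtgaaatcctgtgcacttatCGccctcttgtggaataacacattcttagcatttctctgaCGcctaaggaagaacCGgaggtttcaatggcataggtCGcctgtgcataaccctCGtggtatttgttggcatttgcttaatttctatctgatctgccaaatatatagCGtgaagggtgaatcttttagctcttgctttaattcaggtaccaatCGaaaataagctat
Irx2 (chr13:72624001-72624300): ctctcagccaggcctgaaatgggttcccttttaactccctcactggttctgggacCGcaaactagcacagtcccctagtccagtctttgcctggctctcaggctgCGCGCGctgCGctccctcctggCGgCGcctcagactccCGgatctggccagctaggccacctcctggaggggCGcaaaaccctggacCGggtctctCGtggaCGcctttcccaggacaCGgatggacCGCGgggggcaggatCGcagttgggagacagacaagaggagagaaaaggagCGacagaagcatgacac

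The peaks of *Six3*, *Nkx6-1* and *Irx2* held 2, 9 and 17 CG. Among peaks of this length the 9 peaks of homeobox members had a median of 14, and the 1075 others had a median of 1. The 9 peaks belong to *Irx2*, *Dlx6*, *Lhx5*, *Six3* and *Nkx6-1* alone, with more at *Irx2* than at any other gene. They ranged from 1 to 17 CG, and both ends of that range were *Irx2* peaks. Over whole regions the median was 30.9 CG per kb in the 66 member regions, 24.3 in the *Hox* clusters and 9.67 in all regions that overlap no member. The median GC content was 49.9% in member regions and 41.6% in the others. By these medians the regions of these genes were richer in CG than the *Hox* regions and than all regions that overlap no member. Regions of further genes of the same families had a median of 29.2 CG per kb. Those of homeobox genes of other families had 28.4, so the richness was not particular to the set.

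The number of regions per gene ranged from 1 to 9. *Pax3* had 9 regions, *Isl1*, *Nkx6-1* and *Irx2* had 7 each, *Dlx6* had 6, *Msx1* had 5, and *Nkx2-1* and *Meis2* had 4 each. *Lhx5*, *Six3*, *Dlx2*, *Irx1* and *Irx5* had 2 each, and the other 7 genes had 1 each. The regions of each gene formed a single group of overlapping windows, so neighbouring windows share reads and are not independent, and 8 genes held 49 of the 66 regions.

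The positions of the peaks were limited by the overlap rule. A peak could lie at most 5 kb from its gene, so every upstream peak had to lie within 5 kb of the start. Closeness to the start is thus in part set by the rule, and it was not compared with that at other genes. By the outermost start in GENCODE, 51 of the 66 peaks lay within 5 kb of the start. Of all 66, 34 peaks overlapped the gene itself, 27 lay upstream and 5 downstream. Of the 34, 23 touched an exon, 15 touched coding sequence, 13 touched an untranslated region and 11 lay in an intron. The peaks of *Isl1*, *Pax3*, *Nkx6-1*, *Irx2* and *Msx1* covered the start. The longest peak of the set, 4050 bp, was that of *Nkx6-1*.

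**Figure D1:**
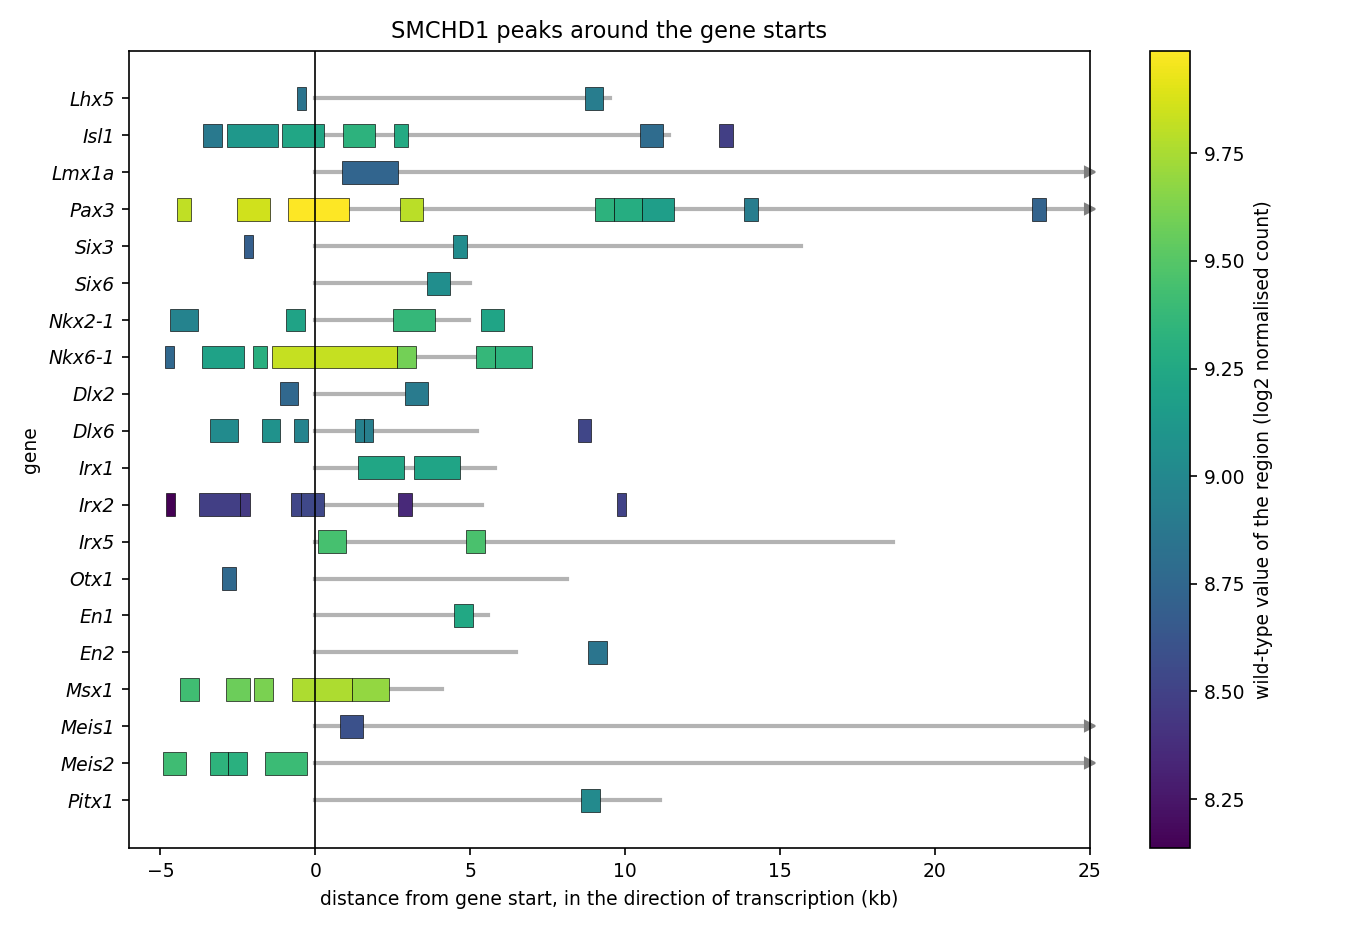
Position of every SMCHD1 peak at the 20 homeobox genes with a region. The x axis is the distance from the gene start in kb along the direction of transcription, each box is a peak drawn to scale, the grey line is the gene (an arrow marks a gene that runs past 25 kb), and the colour is the wild-type value of the region. The peaks of *Meis2* all lie upstream of the gene, and the brightest boxes of *Pax3*, *Nkx6-1* and *Msx1* lie over the start.

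The level of SMCHD1 binding was higher at these genes than at most other regions. The wild-type value had a median of 9.15 in member regions (range 8.14 to 9.99), 7.61 in other regions outside the *Hox* clusters and 10.17 in the *Hox* clusters. In *MommeD43* the medians were 9.25, 7.64 and 10.36. A wild-type value above 9 was found in 39 of 66 member regions (59.1%), compared with 19.2% of all regions and 13.1% of other regions outside the *Hox* clusters. No member region exceeded 10 in wild-type, whereas 102 of 168 *Hox* regions did. Such values were rare elsewhere, with 13 among the 2606 other regions outside the *Hox* clusters and 115 among all 2840 regions. Regions of further genes of the same families had a wild-type median of 9.37, with 77.1% above 9. Those of homeobox genes of other families had 9.05, with 50% above 9, so a high level was not particular to the set. Member regions held a median of 413 reads in a wild-type library and 379 in a *MommeD43* library, as estimated from the deposited values, and counting error alone gave a median SD of 0.06 for a difference.

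The number of peaks in a window moved with the level. Member windows held a median of 4 peaks, and other windows outside the *Hox* clusters held a median of 1. Where a window held 1 peak, the median wild-type value was 8.85 in 12 member regions and 7.25 in 2008 other regions. Where it held 4 or more, the medians were 9.28 in 39 member regions and 9.26 in 200 other regions. With 2 peaks the medians were 8.93 in 12 member regions and 8.25 in 287 others, and with 3 peaks 9.37 in 3 and 8.71 in 111. The homeobox regions therefore lay above the others among windows with 1, 2 or 3 peaks and level with them among windows with 4 or more.

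**Figure D2:**
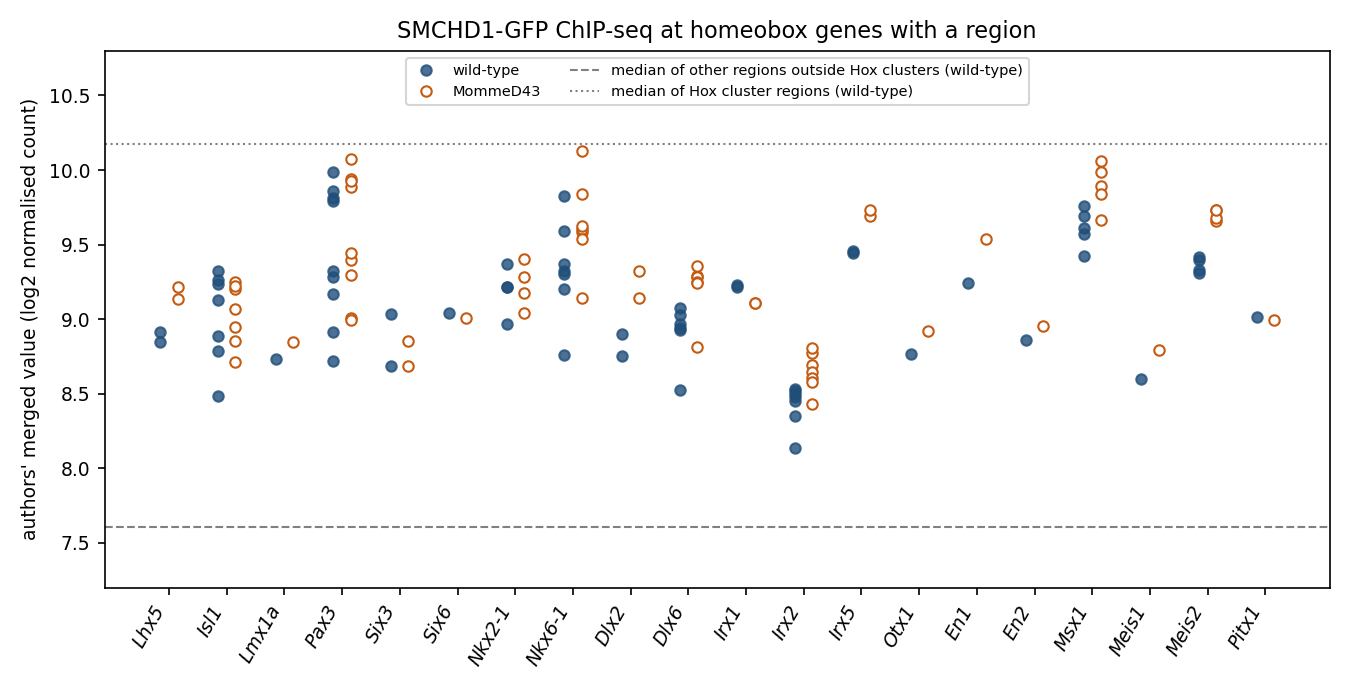
Wild-type (filled) and *MommeD43* (open) values of every region at the 20 homeobox genes. The y axis is the merged log2 normalised count, each point is 1 region, and the lines mark the wild-type medians of other regions outside the *Hox* clusters (7.61) and of *Hox* regions (10.17). All wild-type points lie between 8.14 and 9.99.

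The genes were ordered by their highest wild-type region. *Pax3* was first at 9.99, followed by *Nkx6-1* at 9.82, *Msx1* at 9.76, *Irx5* at 9.45, *Meis2* at 9.42, *Nkx2-1* at 9.37, *Isl1* at 9.33, *En1* at 9.25, *Irx1* at 9.23 and *Dlx6* at 9.08. Only 3 of the 19 gaps between neighbours in the order of all 20 genes exceeded 2 counting SDs, namely those after *Pax3*, *Msx1* and *Irx1*. The lowest of the 20 was *Irx2* at 8.53. In *MommeD43*, *Nkx6-1* was first and *Pax3* the next.

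*Pax3* had its strongest region over the gene start at chr1:78191051-78203000, with 9.99 in wild-type and 10.07 in *MommeD43*. The values declined with distance into the gene. The wild-type value was 9.33 in the region whose peak began 9034 bp downstream of the start and 8.72 in the region whose peak began 23134 bp downstream, so the 9 regions spanned 1.27. The difference between genotypes was 0.08 at the start (counting SD 0.04), had a median of 0.11 over the 9 regions and reached 0.29 (counting SD 0.07) in the weakest region, which lay farthest into the gene.

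*Nkx6-1* specifies ventral neural progenitors and pancreatic beta cells. Its strongest region, chr5:101657351-101671400, lay over the start, where the wild-type value was 9.82 and the *MommeD43* value was 10.13. All 7 regions were higher in *MommeD43*, and the difference was 0.24, 0.25 and 0.31 in the regions whose peaks touched coding sequence and reached 0.39 in the region whose peak lay 4555 bp upstream. *Nkx2-1*, which specifies the ventral forebrain, thyroid and lung, differed less. Its 4 regions had wild-type values of 9.22, 9.37, 9.21 and 8.97 and *MommeD43* values of 9.18, 9.40, 9.28 and 9.04, so the differences of -0.04 to 0.07 were all under 2 counting SDs.

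*Msx1* had 5 regions with wild-type values from 9.42 to 9.76 and *MommeD43* values from 9.66 to 10.06. The highest lay over the start at chr5:37818401-37830350. All 5 differences were positive, from 0.24 to 0.30, and each exceeded 2 counting SDs. The differences of *Msx1* were thus nearly equal across its span, as were those of *Meis2*.

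*Meis2* encodes a cofactor of HOX proteins. Its 4 peaks all lay upstream of the gene, from 262 bp to 4162 bp before the start. The wild-type values were 9.31 to 9.42 and the *MommeD43* values 9.66 to 9.74, which gave differences of 0.32 to 0.35. Its paralogue *Meis1* had a single region in its first few kb with 8.60 in wild-type and 8.79 in *MommeD43*, a difference of 0.20 (counting SD 0.07).

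The DLX regions had the largest difference of the set. The *Dlx2* region chr2:71538101-71548850, whose peak overlapped the untranslated end of the gene, had 8.90 in wild-type and 9.33 in *MommeD43*. Its upstream region had 8.75 and 9.14. The differences of 0.43 and 0.38 (counting SD 0.06 for both) were the first and the third largest of the 66 member regions. The 6 regions of *Dlx6* had wild-type values from 8.53 to 9.08 and *MommeD43* values from 8.82 to 9.35. All 6 differences lay between 0.27 and 0.32, and all 6 windows overlapped the antisense transcript *Dlx6os1* as well as the gene.

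The Iroquois genes differed among themselves. *Irx5*, a heart and retina gene, had wild-type values of 9.44 and 9.45 and *MommeD43* values of 9.69 and 9.73, and its first region overlapped the noncoding gene *Crnde*. *Irx2* had 7 regions at a lower level, 8.14 to 8.53 in wild-type and 8.43 to 8.81 in *MommeD43*. The differences of *Irx5* were 0.25 and 0.28, and those of *Irx2* had a median of 0.26. *Irx1*, on the same chromosome as *Irx2*, lay in the other direction, with 9.22 and 9.23 in wild-type and 9.11 in *MommeD43* in both regions. Its differences of -0.11 and -0.13 (counting SD 0.06) made it the gene with the lowest median difference of the set.

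*Isl1*, a motor neuron and heart gene, differed in sign along its length. The 5 regions with peaks from upstream of the start to 2988 bp into the gene were lower in *MommeD43*, by 0.01 to 0.08. The region at the end of the gene had 8.78 in wild-type and 8.95 in *MommeD43*, and the region beyond the gene had 8.48 and 8.71. Those last differences of 0.17 and 0.23 each exceeded 2 counting SDs, and none of the 5 negative ones did.

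The sine oculis genes were equal or lower in *MommeD43*. The *Six3* region in the gene, chr17:85613051-85623500, had 9.03 in wild-type and 8.85 in *MommeD43*, which was the most negative difference of the set at -0.18 (counting SD 0.07). The upstream *Six3* region had 8.69 in both genotypes. *Six6* had 9.04 and 9.01, and its window also held the gene 4930447C04Rik. The RefSeq start of *Six3* lies inside the GENCODE span, so positions within this gene depend on the annotation.

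The other genes had 1 or 2 regions. *Lhx5*, a forebrain and spinal cord gene, had 8.85 and 8.91 in wild-type and 9.14 and 9.21 in *MommeD43*, and its differences of 0.29 and 0.30 exceeded 2 counting SDs. Regions within 1 Mb of *Lhx5* that overlap no member differed more, with 5 differences from 0.29 to 1.49. *En1* had 9.25 and 9.54, a difference of 0.29 (counting SD 0.06). *En2* had 8.86 and 8.95, and its peak lay downstream of the gene. *Pitx1* had 9.02 and 8.99, *Otx1* had 8.76 and 8.92, and *Lmx1a* had 8.73 and 8.85. Of these 4, the difference exceeded 2 counting SDs for *Otx1* alone (0.16).

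**Figure D3:**
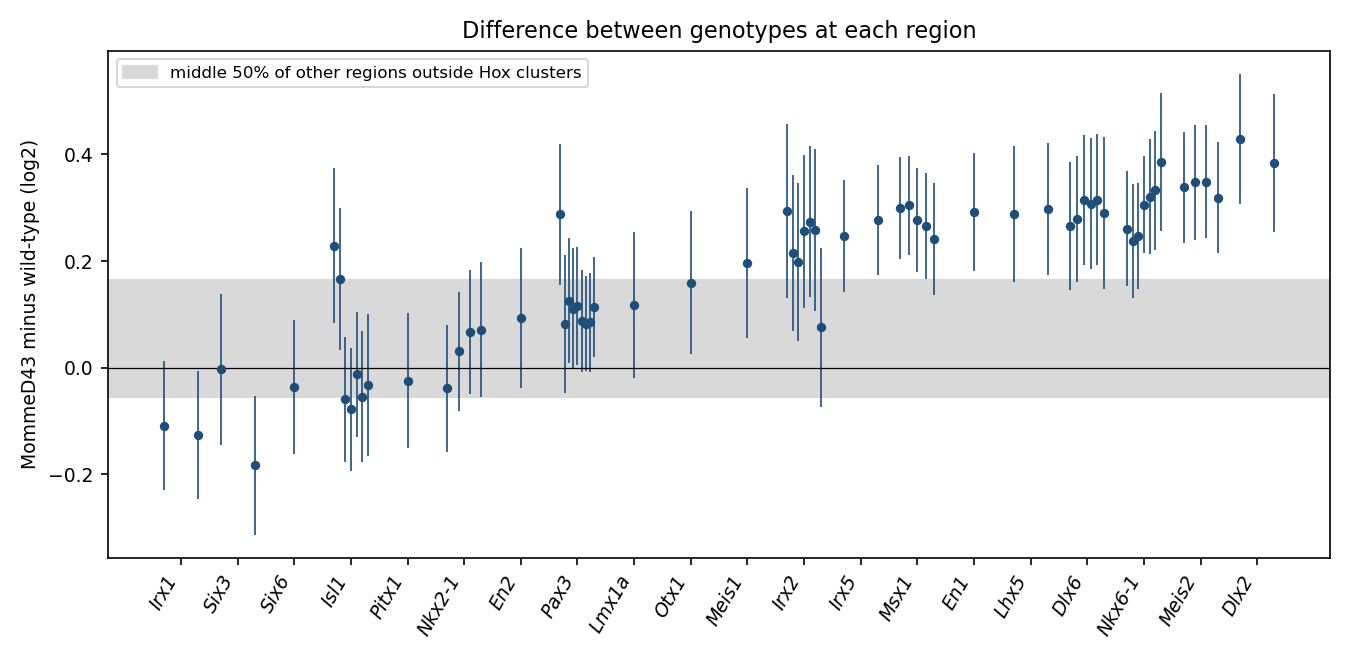
Difference between *MommeD43* and wild-type at each region, with the 20 genes ordered by their median difference. The y axis is the log2 difference, each point is 1 region, and bars show 2 counting SDs, which cover counting error only. The shaded band holds the middle 50% of other regions outside the *Hox* clusters. The genes from *Irx2* to *Dlx2* lie mostly above the band, and *Irx1* and *Six3* lie lowest.

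Over all member regions the value was higher in *MommeD43* in 54 of 66 (81.8%), compared with 66.0% of all 2840 regions. It was lower in 12, compared with 34.0%. The median difference was 0.24 in member regions, 0.07 in all regions and 0.17 in the *Hox* clusters. The member median fell to 0.11 once each difference was taken from a local fit on the level of signal, and to 0.09 from a fit on GC content. Differences of more than 0.25 in favour of *MommeD43* were found in 30 of 66 member regions, compared with 11.4% of all regions, and none was more than 0.25 lower, compared with 4.68%. No member region differed by more than 0.5, compared with 1.69% of all regions. The difference exceeded 2 counting SDs upwards in 43 regions, compared with 26.8%, and downwards in 2, compared with 4.01%.

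Strong regions were mostly higher in *MommeD43* across the whole table. Library-size normalisation does not remove a difference in how much of a library is enriched, and whether the libraries differed in this was not tested. Among the 998 other regions with wild-type values in the range of the members, 82.1% were higher in *MommeD43*, which is close to the 81.8% of the member regions. The median difference of those regions was 0.11, and 9.22% differed by more than 0.25 upwards. Those regions were matched to the members by range alone, and their median wild-type value was 8.86 against 9.15. After the fit on level, 41 of 66 member regions (62.1%) lay above it, compared with 49.0% of all regions fitted.

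Counted by gene, 14 of the 20 genes were higher in *MommeD43* in all of their regions, *Irx1*, *Six3*, *Six6* and *Pitx1* were lower in all, and *Isl1* and *Nkx2-1* were mixed. Among all regions, 66.0% were higher. The share of groups of overlapping regions with all regions on one side was not computed, here or after the fit. For 7 of the genes, all means a single region. After the fit on level, 11 genes lay above it in all of their regions and 6 below it in all. *Irx2*, *Isl1* and *Pax3* were mixed, and *Pax3*, higher in *MommeD43* in all 9 regions as deposited, lay above the fit in 1 of 9. With the strongest region of each gene, 15 of 20 were higher in *MommeD43*, compared with 60.5% of the 2169 groups of overlapping regions. Here and in the next comparison, the region of a gene was picked by its wild-type value. That of a group was picked by the mean of both genotypes, and the groups were not matched by level. A difference above 0.25 was found in 9 of these 20 genes, compared with 9.82% of groups, namely *Nkx6-1*, *Msx1*, *Irx5*, *Meis2*, *En1*, *Dlx6*, *Lhx5*, *Dlx2* and *Irx2*. The larger differences were thus spread over 7 families.

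**Figure D4:**
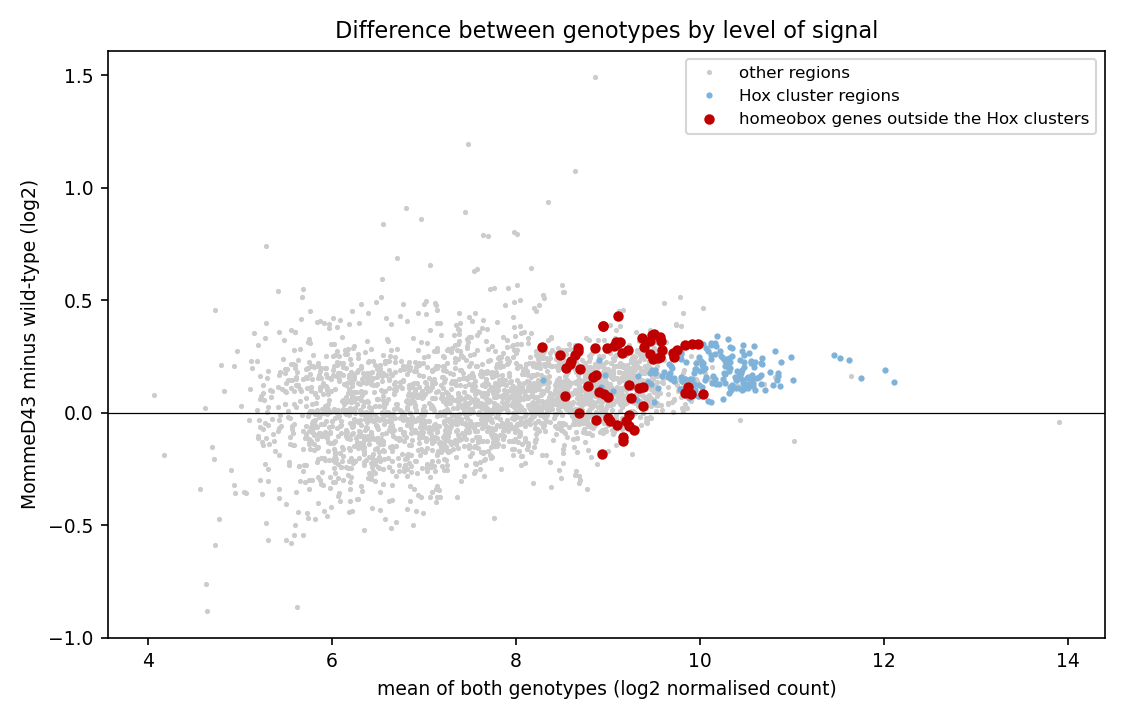
Difference between genotypes against the mean of both genotypes. Each point is 1 region, the x axis is the mean log2 normalised count and the y axis is the log2 difference *MommeD43* minus wild-type, with homeobox members in red, *Hox* cluster regions in blue and other regions in grey (16 other regions with a wild-type value of 4 or less are not drawn). The red points lie between -0.18 and 0.43.

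The difference between member regions and the other regions of the same chromosome varied from one chromosome to another. On chromosome 5, where *Lhx5*, *Nkx6-1*, *En2* and *Msx1* lie, the median difference was 0.29 in 15 member regions and 0.12 in the 186 others. On chromosome 2, where *Dlx2* and *Meis2* lie, it was 0.35 in 6 member regions and 0.08 in the 192 others. On chromosome 13 the 17 member regions of *Isl1*, *Irx1*, *Irx2* and *Pitx1* had a median of 0.08 and the 164 others had 0.07. On chromosome 12, which holds *Six6* and *Nkx2-1*, the medians were 0.03 and 0.02. On chromosome 17 the 2 regions of *Six3* had a median of -0.09 and the 70 others had 0.08, the 1 chromosome of 9 on which the members lay below the others. On chromosomes 1, 6, 8 and 11 the member medians were 0.11, 0.30, 0.26 and 0.18, and those of the others were 0.07, 0.10, 0.05 and 0.13.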

How the data were processed

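GFP ChIP-seq of 3 wild-type and 3 *MommeD43* female NSC lines was analysed. Per the labels and the methods, the authors trimmed reads with Trim Galore 0.4.4, mapped them with Bowtie2 2.3.4.1 to GRCm38.p6, counted them over earlier SMCHD1 peaks widened by 5000 bp to both sides, normalised the counts by total library size and merged the lines. The authors deposited log2 values, 1 column for each genotype, so no test between lines could be run. Reads per library were estimated from the values by taking each as the mean log2 count of 3 libraries (0 reads entered as 0.9) plus a library factor, and the counting SD from these reads is a lower bound. The factor was set by taking the lowest region of each genotype to hold 0 reads in all 3 libraries, which was not tested. Every read estimate and counting SD rests on it. Library totals are not known.

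Regions were matched to GENCODE M21 gene spans. Differences were also taken after a local fit on level or GC content (share 0.3). The genes and lists were chosen with earlier results of these data known. Every gene was named, and those with the highest values or the largest differences were described more fully. A further gene that the rule for other homeobox genes names is not reported here. The procedure was run on simulated data that were built with a region without reads. That run checks the arithmetic of the read estimate and cannot test whether the deposited values hold such a region. Python 3.11.15, NumPy 2.4.6, pandas 2.3.3, statsmodels 0.14.6 and Matplotlib 3.10.9 were used.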

Additional observations from a re-analysis of the deposited data

How the results depend on the processing

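The count of genes with a region was 18 by gene start, 17 by peak without flanks and 22 with 5 kb added to each gene, against 20. Per kb of region the median wild-type level was 5.68 in member regions and 4.32 in other regions, and with 1 region per group (chosen after seeing the data) the other regions had 7.36. The median difference of member regions was 0.24 as deposited, 0.11 after a fit on level and 0.0913 after a fit on GC content. With 1 region per group, 15 of 20 regions were higher in *MommeD43*, a smaller number because fewer regions were counted. At a threshold of 0.25 in place of 0.5, 30 regions differed. The count of member regions above 0 was 51 relative to the median of all regions and 41 after the fit on level, against 54. The median difference was 0.17 relative to the median of all regions and 0.18 as the median of the gene medians (chosen after seeing the data). Of the alternatives, 13 moved a count by less than 1.5 times or a median by less than 0.118, and no summary value changed sign, although *Pax3*, *Nkx2-1* and *En2* had a negative median after the fit on level.

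No paired analysis was possible because the merged columns carry no replicate numbers. Leaving out a line and the replicate block, both planned, were not run for the same reason. The spread between lines and the level in whole cell extract were not analysed here, so a difference is known against counting error alone.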

Other observations

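Related genes that are not in the set were also bound. Of 25 further members of the same families, 11 had a region (44.0%), and of 93 homeobox genes of other families, 20 had a region (21.5%), compared with 5.43% of protein-coding genes. In its highest region *Evx2*, next to the *Hoxd* cluster, had 10.94 in wild-type and 11.09 in *MommeD43*. That window also overlaps the *Hoxd* cluster, so its value is in part that of the cluster. *Evx1*, next to *Hoxa*, had 9.83 and 9.92. *Onecut2* had 10.03 and 10.24, and *Pax5*, a midbrain and B cell gene, had 9.46 and 9.58. All 35 regions of the family relatives were higher in *MommeD43*, but with a median difference of 0.14 and 1 region above 0.25. The 52 regions of the other homeobox genes, the *Evx2* window among them, had a median difference of 0.16, and 8 were above 0.25. Over all regions, 66.0% were higher and 11.4% were above 0.25. Many of these windows overlap and are not independent, since the 35 regions formed 12 groups and the 52 formed 24. These lists were described without a test.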
